A study of Mus musculus with 15 samples.

Results

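End-stage tumors of the mouse glioblastoma line 005 were compared with naïve brain by RNA sequencing, gene by gene and tumor by tumor. All samples that the labels name as 005 tumor or naïve brain were taken, which is 6 of the 15 samples of the series, and 17481 of the 46679 genes in the files passed the filter on low counts and were tested. The series set 4 syngeneic lines, CT2A, GL261, 005 and Mut3, beside naïve brain, with 3 samples in each group, to compare the immune profiles of the tumors. The mice were of the C57BL/6 strain and 6 to 8 weeks old. For the 005 tumors, 100000 cells of the 005 GFP-Fluc line, which carries green fluorescent protein and firefly luciferase, were placed in the right hemisphere, and tumor tissue was taken after perfusion once a mouse reached its humane end-point. The naïve brains are labelled as control tissue without tumor, and the labels do not say which part of the brain was used. The 005 tumors grew from 1 cell line, so they represent that line and not a range of tumors. The labels do not say that each sample was a separate mouse, but the study states the group size of its RNA sequencing in mice. Each sample was therefore taken as a separate mouse, and p-values measure the spread between these samples. The line arose from active H-Ras and AKT in mice with 1 functional copy of Trp53.

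A brain tumor sample mixes tumor cells with resident brain cells and with cells that enter from the blood. Microglia, the resident macrophages of the brain, are joined in many gliomas by monocyte-derived macrophages and lymphocytes. Interferon gamma, which T cells and NK cells release, induces MHC class II genes, guanylate-binding GTPases and the chemokines that recruit more T cells. Dividing tumor cells in turn transcribe the genes of mitosis and DNA replication. In these bulk samples, fewer cells of a type and less RNA per cell cannot be told apart.

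Total counts were 5161132, 3105119 and 3993839 in naïve brain replicates 1, 2 and 3 and 10045670, 8523676 and 13130158 in the 005 tumors. Levels are given in CPM, counts relative to library sizes scaled by TMM. A count of 3, taken as the smallest level that a library can show, corresponded to between 0.612 and 0.811 CPM in naïve brain and between 0.214 and 0.362 CPM in the 005 tumors, which covers counting error only. The 005 tumors did not resemble each other equally. Across the tested genes, which are not independent replicates, the log2 CPM of 005 replicate 3 had a Pearson correlation of 0.904 to 0.919 with the naïve brains, 0.833 with 005 replicate 1 and 0.792 with 005 replicate 2, whereas replicates 1 and 2 correlated at 0.927. Mitochondrial transcripts took 24%, 15% and 21.5% of the counts in naïve brain, 6.43% and 4.6% in 005 replicates 1 and 2, and 17.8% in replicate 3. The library labelled 005 replicate 3 therefore lay closer to naïve brain than to the other 005 tumors, and the genes below are therefore given tumor by tumor, apart from a few that are summarised by a range. Where a fold change is followed by the words by tumor, the 3 values are the log2 CPM of 005 replicates 1, 2 and 3 minus the naïve mean. A change is said to hold in replicate 3 when its log2 CPM lay beyond all 3 naïve brains and at least 1 from their mean, in the direction of the change.

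Compared with naïve brain, 2033 genes were upregulated and 184 downregulated in 005, which is 11.6% and 1.05% of the genes tested (edgeR quasi-likelihood test, Benjamini-Hochberg adjusted p under 0.05 and a log2 fold change of 1 or more in size). The median log2 fold change of all tested genes was 0.01. Of the upregulated genes, 1191 (58.6%) held in replicate 3, 618 lay outside the naïve range without meeting the rule and 224 lay within the naïve range, where 57.4% of all tested genes lay. The rule for replicate 3 alone was met upward by 12.3% and downward by 2.53% of all tested genes. All the 005 tumors lay above all the naïve brains for 16.8% of the tested genes and below them for 10.7%. Of the downregulated genes, 63 (34.2%) held in replicate 3. The upregulated genes had a median difference from the naïve mean of 2.48, 2.97 and 1.2 on the log2 scale in 005 replicates 1, 2 and 3, and the downregulated genes of −1.97, −2.07 and −0.84. The scatter of replicate 3 against the other 005 tumors shows both groups of genes.

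**Figure D1:**
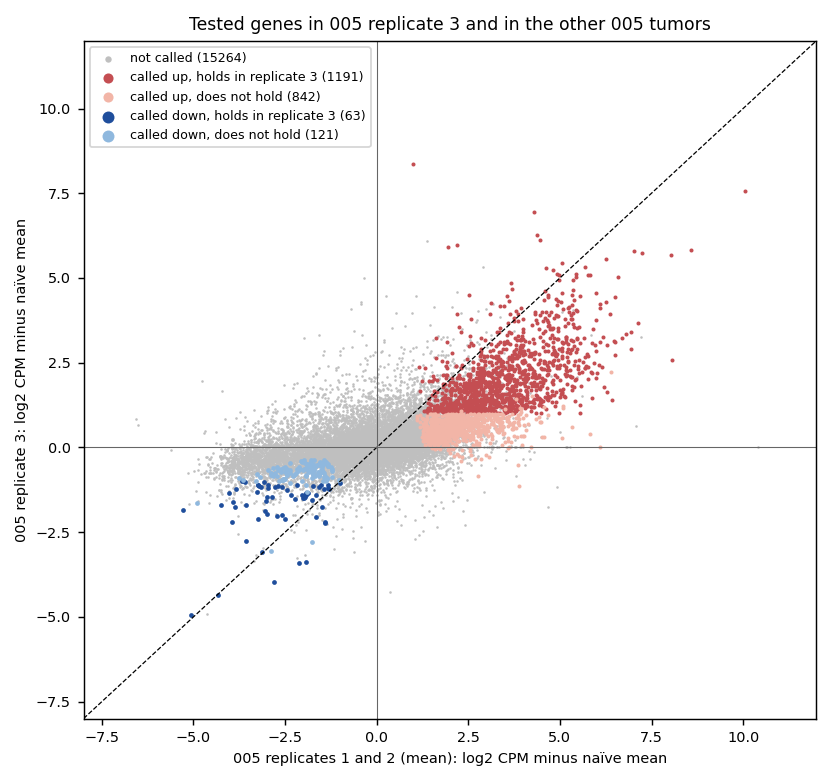
Each point is 1 of the 17481 tested genes, plotted by its log2 CPM minus the naïve mean in 005 replicates 1 and 2 (their mean, horizontal axis) and in 005 replicate 3 (vertical axis). The dashed line marks equal differences. Most of the 2033 upregulated genes (red and pink) lie between the line and 0, so they moved in replicate 3 by less than in the other tumors, and 1191 of them (red) held there. Of the 184 downregulated genes, 63 (dark blue) held.

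The direction of the calls depended on replicate 3 and on the scale. Without 005 replicate 3, 3217 genes were upregulated and 3318 downregulated, which is 17.6% and 18.1% of the 18300 genes then tested. The upregulated share of all calls was 91.7% in the comparison of all the tumors, 49.2% without replicate 3, 75.5% in DESeq2, 50.0% in limma voom with sample weights, and 27.6% and 31.9% in limma on log2(TPM + 1) and log2(TPM + 0.1), scales on which the median of all genes lay at −0.23 and −0.45. When each of the 6 libraries was left out in turn, 868 of the 2033 upregulated genes (42.7%) and 5 of the 184 downregulated genes (2.72%) were called in all 6 fits, and 685 of the former and 5 of the latter also held in replicate 3. The counts of up- and downregulated genes were 1295 and 12 without 005 replicate 1, 992 and 14 without 005 replicate 2, 1103 and 33 without naïve replicate 1, 1700 and 176 without naïve replicate 2, and 1366 and 56 without naïve replicate 3. For single genes whose call was lost without 1 library, the value left is given, or its range, except for genes at 0 in naïve brain. When only the 6 samples of 005 and naïve brain were fitted, 219 genes were upregulated and 3 downregulated.

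The lists of genes described next are summarised in the plot of list medians, and members of a list that did not pass the filter on low counts are not counted. A gene that is low in all other groups passes this filter through the tumors in which it is high, so the counts describe the members and are not evidence for the list. Each count stands beside the 11.6% upregulated and 1.05% downregulated among all tested genes. In the fit of the 6 samples alone, 219 of the 14993 genes then tested were upregulated. The upregulated members in that fit were 8 of 11 tested for MHC class II, 8 of 17 for monocytes and infiltrating macrophages, 8 of 24 for mitosis, 7 of 23 for chemokines, 6 of 14 for pan-leukocyte genes and 6 of 13 for T cells. They were 5 of 14 for the GTPases induced by interferon gamma, 5 of 16 for reactive gliosis, 4 of 17 for lipid-associated macrophages, 4 of 15 for MHC class I, 3 of 24 for DNA replication, 3 of 10 for cytotoxic genes and 2 of 16 for complement. At most 1 gene was called in any other list, with 0 of 15 collagens and 0 of 18 matrix proteases and proteins.

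**Figure D2:**
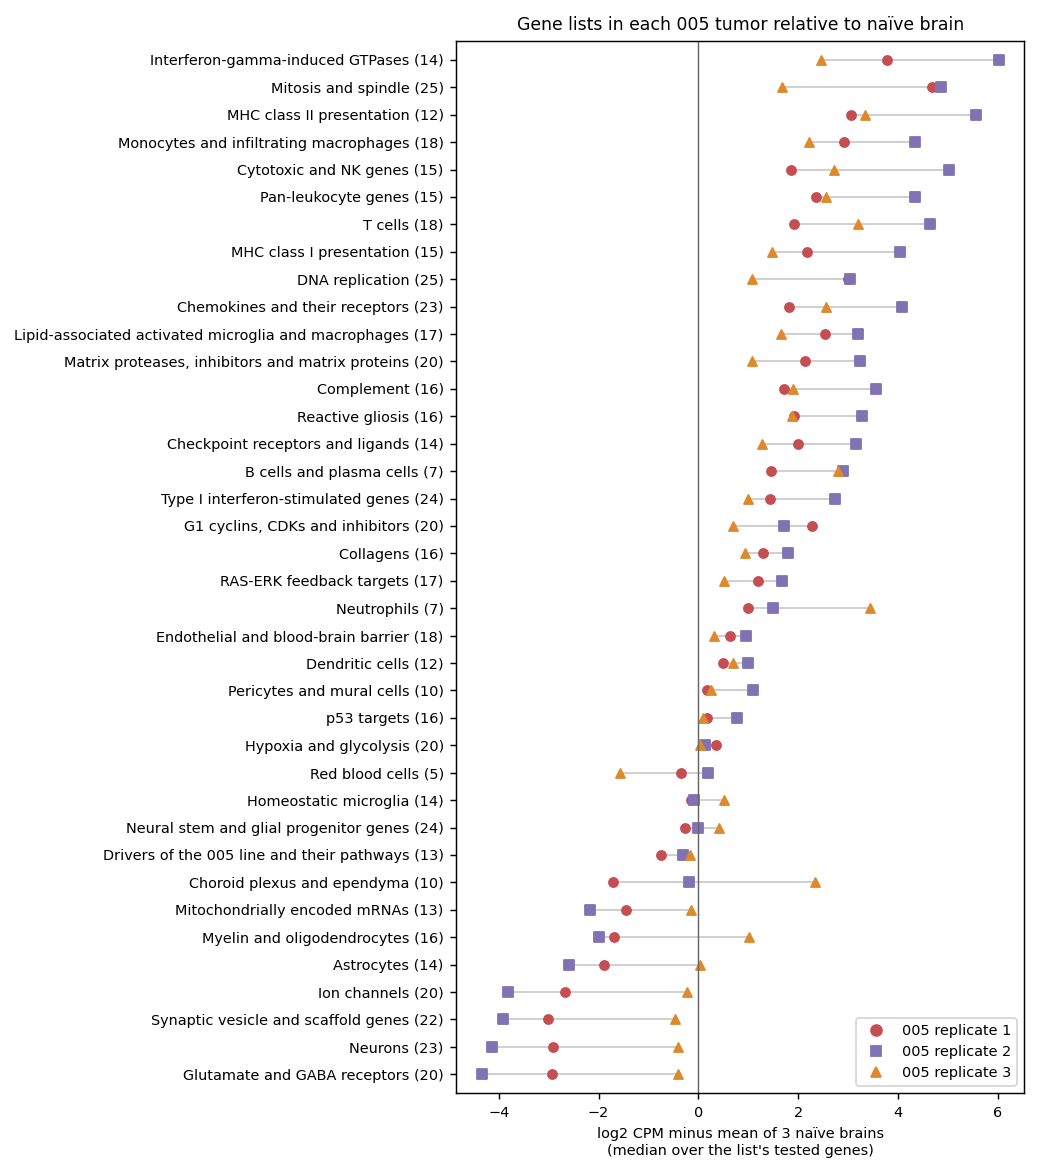
For each gene list (number of tested genes in brackets), the median log2 CPM minus the mean of the 3 naïve brains is plotted for each 005 tumor. Immune lists other than homeostatic microglia and the cell cycle lists lie to the right of 0 in all 3 tumors, and lists of neuronal genes lie between −4.33 and −2.68 in replicates 1 and 2 but between −0.47 and −0.22 in replicate 3, where the choroid plexus list stands at the right.

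Genes of leukocytes were higher in all the 005 tumors. Of the 15 tested pan-leukocyte genes, 11 were upregulated and 0 downregulated, with a median log2 fold change of 3.34, and all 11 held in replicate 3. Ptprc (ENSMUSG00000026395, chromosome 1 from 138062861 to 138175708), the gene of the surface antigen CD45 of white blood cells, was at 4.49, 1.74 and 1.89 CPM in the naïve brains and 46.2, 261 and 50.1 CPM in 005 replicates 1, 2 and 3. Every 005 tumor lay above every naïve brain, and replicate 2 lay more than 5 times above the other tumors. Its log2 fold change was 5.42 (SE 0.83, edgeR quasi-likelihood test, Benjamini-Hochberg adjusted p = 0.00185). Cd52, a surface glycoprotein of lymphocytes and monocytes, was at 15.1, 12.5 and 15.7 CPM in naïve brain and 229.7, 1075 and 246 CPM in the tumors (log2 fold change 5.16, SE 0.74), Laptm5, a lysosomal membrane protein of blood cells, rose by 2.15 (SE 0.41, by tumor 1.30, 3.00 and 1.56), and Rac2, a small GTPase of blood cells, had a log2 fold change of 3.85 (SE 0.46, by tumor 2.99, 4.64 and 3.17).

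Infiltrating myeloid genes were among the strongest changes, and they held in replicate 3 throughout. Of 18 genes of monocytes and infiltrating macrophages, 14 rose, all 14 held and the median log2 fold change was 3.57. Chil3, a chitinase-like protein of activated macrophages (ENSMUSG00000040809, chromosome 3 from 106147554 to 106167564), was at 0.408, 0.498 and 0.541 CPM in naïve brain and 42.1, 222 and 40.9 CPM in the 005 tumors, a log2 fold change of 7.68 (SE 1.18, edgeR quasi-likelihood test, Benjamini-Hochberg adjusted p = 0.00186). The naïve values lay below the level of 3 counts, and the tumors did not overlap with them. Arg1, which encodes arginase 1, was at 2.86, 5.98 and 3.79 CPM in naïve brain and 113, 277 and 53 CPM in the tumors (log2 fold change 5.13, SE 0.83). Ms4a7, a marker of macrophages from outside the brain parenchyma, rose by 5.17 (SE 0.83) and held at 50.2 CPM in replicate 3, above the highest naïve value of 3.79 CPM. Ly6c2, an antigen of inflammatory monocytes, rose by 4.91 (SE 0.91, by tumor 1.76, 5.95 and 3.93). Ccr2, the receptor that draws monocytes out of the bone marrow, was at 2.86, 0 and 1.89 CPM and 18.3, 37.7 and 11.2 CPM, a log2 fold change of 3.78. Its call was lost without 005 replicate 2 (3.18) and without naïve replicate 3 (3.90).

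Of the 17 genes of lipid-associated activated microglia and macrophages, 14 rose and 13 of these held in replicate 3. Clec7a, the beta-glucan receptor dectin-1, was at 1.02, 1.49 and 2.97 CPM in naïve brain and 42.8, 279.8 and 65.9 CPM in the tumors (log2 fold change 6.16, SE 0.86). Spp1, which encodes osteopontin, was at 127, 108 and 187 CPM and 6495, 3474 and 393 CPM, so replicate 1 was highest and replicate 3 stood nearest to naïve brain without reaching it (log2 fold change 4.62, SE 0.74). Cst7, an inhibitor of lysosomal proteases, rose by 4.92 (SE 0.67, by tumor 3.99, 5.51 and 4.00), and the integrin gene Itgax by 4.92 (SE 0.80, by tumor 3.42, 5.82 and 4.00). Apoe, the main lipid carrier of the brain, had a log2 fold change of 0.98 (by tumor 0.33, 1.33 and 1.16), just below the fold threshold, and was called without 005 replicate 1 (1.23).

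Homeostatic microglia genes, in contrast, did not move together. Of 14 tested genes, 0 were upregulated and 0 downregulated in edgeR's quasi-likelihood test (1 and 1 at an unadjusted p below 0.05, 0 in DESeq2, and up to 2 up and 4 down in limma), and their median log2 fold change was −0.07, whose sign changed under 7 of the alternatives. P2ry12, the ADP receptor by which microglia sense injury, was at 60.2, 31.9 and 57.6 CPM in naïve brain and 12.1, 9.05 and 38 CPM in the tumors. Replicates 1 and 2 lay below all naïve brains and replicate 3 within their range (log2 fold change −1.33, SE 0.55, edgeR quasi-likelihood test, Benjamini-Hochberg adjusted p = 0.116). Without replicate 3 it was called with a log2 fold change of −2.31, as 1 of 3 genes of the list that were then downregulated. Tmem119, another microglial membrane protein, was at 1.63, 12.7 and 5.41 CPM and 4.22, 4.47 and 7.33 CPM, and the groups overlapped. Summed over the list, the level was 289 to 336 CPM in naïve brain and 304 to 446 CPM in the tumors.

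Antigen presentation genes rose with few exceptions. Of 12 MHC class II genes, 11 were upregulated, all 11 held in replicate 3, and the median log2 fold change was 4.52 (4.26 with Ciita set to its bound). H2-Aa, the class II alpha chain (ENSMUSG00000036594, chromosome 17 from 34282744 to 34287823), was at 37.7, 47.8 and 46.8 CPM in naïve brain and 701, 3816 and 759 CPM in the 005 tumors. The lowest tumor lay more than 10 times above the highest naïve brain, and the log2 fold change was 5.32 (SE 0.87, edgeR quasi-likelihood test, Benjamini-Hochberg adjusted p = 0.00204). H2-Ab1, its beta chain partner, rose by 5.45 (SE 0.88, by tumor 3.82, 6.68 and 4.00). Ciita, the transactivator that switches on the class II genes, had a count of 0 in all the naïve brains and was at 1.54, 19.6 and 3.92 CPM in the tumors. Of 15 MHC class I genes, 13 rose and 12 held, with a median of 3.14. B2m, the light chain of class I molecules, was at 483, 395 and 564 CPM and 5745, 9826 and 2129 CPM (log2 fold change 3.62, SE 0.60), H2-K1 rose by 4.34 (SE 0.61, by tumor 3.68, 5.38 and 2.97), the peptide transporter gene Tap1 by 4.48 (SE 0.76, by tumor 3.24, 5.57 and 2.47) and the immunoproteasome subunit gene Psmb9 by 4.74 (SE 0.85, by tumor 4.17, 5.79 and 2.91). Reads of H2 genes can be shared among near-identical copies, so the values of single H2 genes are uncertain.

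Interferon gamma-induced GTPases were all upregulated, 14 of 14, and all 14 held in replicate 3, with a median log2 fold change of 4.70, but 5 of 14 were called in the fit of the 6 samples alone. These proteins attack the vacuoles of intracellular microbes and are induced by interferon gamma. Gbp2 (ENSMUSG00000028270, chromosome 3 from 142620602 to 142638008) was at 17.3, 19.4 and 17.8 CPM in naïve brain and 471, 2463 and 157 CPM in the tumors, a log2 fold change of 5.82 (SE 0.92, edgeR quasi-likelihood test, Benjamini-Hochberg adjusted p = 0.00189). The naïve values differed little, and the tumors spread from 157 CPM in replicate 3 to 2463 CPM in replicate 2. Irgm1 (ENSMUSG00000046879, chromosome 11 from 48861968 to 48871683) was at 41.4, 18.4 and 41.4 CPM and 251, 620.0 and 127 CPM (log2 fold change 3.30, SE 0.56). Gbp8 rose by 5.45 (SE 0.89, by tumor 3.93, 6.4 and 2.28) and Gbp9 by 5.11 (SE 0.87, by tumor 4.36, 6.52 and 4.06). The guanylate-binding proteins form a family of similar sequences, so reads may be split among its members.

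Type I interferon-stimulated genes rose in part. Of 24 tested, 13 were upregulated and 9 held in replicate 3, with a median log2 fold change of 1.99, and the number upregulated fell to 4 without 005 replicate 2 and to 8 without naïve replicate 3. Zbp1, a sensor of Z-form nucleic acid, was at 3.47, 4.98 and 4.87 CPM in naïve brain and 93.7, 258 and 33.1 CPM in the tumors (log2 fold change 4.85, SE 0.72). Oas1a, a synthetase that senses double-stranded RNA, rose by 4.05 (by tumor 3.60, 5.27 and 2.77) and lost its call without 005 replicate 2 (3.02). Isg15, a ubiquitin-like modifier, did not pass the test (log2 fold change 2.19, SE 0.75, by tumor 1.18, 2.95 and 0.73, edgeR quasi-likelihood test, Benjamini-Hochberg adjusted p = 0.0692) and was called without replicate 3 (2.52). Ifit1 rose by 1.64 (by tumor 1.29, 2.54 and 0.79, not held in replicate 3) and lost its call without 005 replicate 1 (1.83), 005 replicate 2 (0.96), naïve replicate 2 (1.51) or naïve replicate 3 (1.49).

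The promoters of these genes, from RefSeq on GRCm38.p6, were searched on both strands for the core of the interferon-stimulated response element, GAAANNGAAA, in the 250 bases before each start. Of the 14 GTPase genes, 9 had promoters in the reference, and 9 of their 10 windows (90.0%) held the motif, against 2.98% of all 32851 windows. The share was 41.2% of 17 windows for type I interferon-stimulated genes, 13.3% of 15 for MHC class I and 0 of 9 for MHC class II. The gamma-activated site, TTCNNNGAA, was in 60.0% of the GTPase windows and in 7.02% of all windows. The motifs are short and their matches are descriptions of the sequence. RefSeq starts can differ from the gene coordinates given above, which come from GENCODE. The Irgm1 window and the marked Gbp2 motif lie within those coordinates, so they are upstream of the RefSeq start only. Capitals mark GAAANNGAAA or its reverse complement, which begins 59 bases before the start in Gbp2 and forms an overlapping pair in Irgm1.
Gbp2 (chr3:142620413-142620662, plus strand): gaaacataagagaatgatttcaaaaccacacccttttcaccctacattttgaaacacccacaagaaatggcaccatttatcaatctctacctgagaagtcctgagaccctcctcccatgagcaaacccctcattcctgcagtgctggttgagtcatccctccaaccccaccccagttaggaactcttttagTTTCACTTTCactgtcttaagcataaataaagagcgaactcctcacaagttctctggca
Irgm1 (chr11:48871421-48871670, minus strand): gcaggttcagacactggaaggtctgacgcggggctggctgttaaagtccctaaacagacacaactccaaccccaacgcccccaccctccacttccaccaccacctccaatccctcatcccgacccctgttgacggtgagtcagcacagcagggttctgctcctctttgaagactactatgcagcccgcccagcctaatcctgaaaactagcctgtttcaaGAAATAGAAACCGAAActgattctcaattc

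MHC class II promoters held CCAAT boxes in 77.8% of 9 windows and MHC class I promoters in 60% of 15, against 33.8% of all windows. The share was 35.3% of 17 windows for type I interferon-stimulated genes and 20% of 10 for the GTPases. The CCAAT box is the binding sequence of the factor NF-Y and lies at the proximal end of the class II control region. In H2-Aa, capitals mark its reverse complement ATTGG.
H2-Aa (chr17:34287824-34288073, minus strand): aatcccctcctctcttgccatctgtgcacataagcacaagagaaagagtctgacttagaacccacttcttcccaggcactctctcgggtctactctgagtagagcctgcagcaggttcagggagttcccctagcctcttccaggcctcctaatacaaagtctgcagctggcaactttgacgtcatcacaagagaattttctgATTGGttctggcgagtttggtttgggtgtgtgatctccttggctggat

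Genes of T cells and cytotoxic cells rose from levels at or near the detection floor. Of 18 tested T cell genes, 12 were upregulated and all 12 held in replicate 3, with a median log2 fold change of 4.32 (4.28 with Cd5 set to its bound). Cd8a, the alpha chain of the CD8 coreceptor, was at 0.408, 0.249 and 0.270 CPM in naïve brain and 6.39, 46.0 and 11.1 CPM in the tumors, a log2 fold change of 5.99 (SE 0.92, edgeR quasi-likelihood test, Benjamini-Hochberg adjusted p = 0.00186). Here replicate 3 lay above replicate 1. Cd8b1, the beta chain, behaved alike, with 0, 0.498 and 0.811 CPM and 11.6, 78.2 and 23.5 CPM (log2 fold change 6.48, SE 0.93). Cd5, a brake on T cell receptor signals, was at 0 in all the naïve brains and at 0.515, 2.90 and 3.35 CPM in the tumors, and its call was lost without 005 replicate 2 or any 1 of the naïve brains. No fold against naïve brain is given for genes at 0 there, since a fitted value would depend on the prior count.

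Of 15 cytotoxic and NK cell genes, 10 rose and all 10 held. Gzmb, the granule protease granzyme B, was at 1.84, 1.99 and 1.08 CPM in naïve brain and 18.7, 202 and 80.2 CPM in the tumors (log2 fold change 5.91, SE 0.80), with replicate 3 again above replicate 1. Nkg7, a granule protein of cytotoxic cells, rose by 5.73 (SE 0.91, by tumor 3.96, 6.68 and 4.49) whereas Klre1, an NK cell receptor, was at 0, 0.249 and 0.270 CPM and 3.30, 40.0 and 5.55 CPM, a ratio of 86.8-fold (95% exact counting interval 23.9 to 719). Prf1, which encodes perforin, was at 0.204, 0.249 and 0 CPM and 0.412, 5.31 and 0.997 CPM. It did not pass (edgeR quasi-likelihood test, Benjamini-Hochberg adjusted p = 0.0668) and was called without replicate 3 (log2 fold change 3.97).

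Of 14 checkpoint receptors and ligands, 8 rose and 7 held, with a median of 2.24 (2.07 with Cd96 set to its bound), and 3 were upregulated without 005 replicate 2. Pdcd1, which encodes the receptor PD-1, was at 0.204, 0 and 0 CPM in naïve brain and 3.19, 11.3 and 4.63 CPM in the tumors, a ratio of 74.8-fold (95% exact counting interval 13.3 to 2970.0). This interval covers counting error only and is given where naïve brain had 1 to 3 counts in all. Its ligand gene Cd274, encoding PD-L1, was at 3.26, 5.23 and 2.97 CPM and 16.3, 86.4 and 9.83 CPM. The log2 fold change of 3.29 was lost without 005 replicate 2 (1.77) or naïve replicate 1 (3.19). The second ligand gene, Pdcd1lg2, was at 0.204, 0 and 0.541 CPM and 3.50, 59.6 and 8.76 CPM, a ratio of 85.4-fold (95% exact counting interval 29.1 to 415), and its call was lost without 005 replicate 2 (log2 fold change 4.59). Cd96, a receptor of T and NK cells, had 0 counts in the naïve brains and 1.13, 5.92 and 1.99 CPM in the tumors, and lost its call without 005 replicate 2 or naïve replicates 1 or 3.

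Chemokine genes were among those with the largest increases. Of 23 chemokine and receptor genes, 12 were upregulated and all 12 held in replicate 3, with 19 upregulated and 3 downregulated when replicate 3 was left out. Cxcl9, an interferon gamma-induced attractant of T cells (ENSMUSG00000029417, chromosome 5 from 92321347 to 92328079), was at 0.612, 1.25 and 4.06 CPM in naïve brain and 174, 2706 and 101 CPM in the tumors, a log2 fold change of 9.01 (SE 1.45, edgeR quasi-likelihood test, Benjamini-Hochberg adjusted p = 0.00196). The lowest tumor value, in replicate 3, was still far above the highest naïve value of 4.06 CPM. Ccl8, a chemokine that attracts monocytes and T cells, was at 15.7, 19.4 and 16.5 CPM and 382, 3751 and 299.6 CPM (log2 fold change 6.42, SE 0.98). Cxcr6, a receptor of tissue-resident T cells, was at 0.204, 0.249 and 0.270 CPM, which is under the detection floor, and 12.9, 36.2 and 17.2 CPM, a ratio of 87.4-fold (95% exact counting interval 29.8 to 425). Cxcl10, a further CXCR3 ligand, was at 17.3, 23.2 and 18.9 CPM and 56.4, 634 and 58.2 CPM, and its log2 fold change of 3.65 was lost without 005 replicate 2 (1.54) or naïve replicate 1 (3.57).

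Complement genes rose in 12 of 16 cases, all 12 of which held, with a median log2 fold change of 2.64. C3, the central component, was at 1.43, 1.99 and 8.11 CPM in naïve brain and 21.8, 451 and 97.4 CPM in the tumors (log2 fold change 5.65, SE 0.99). C1qa, which starts the classical pathway, rose by 2.78 (SE 0.56, by tumor 2.34, 3.59 and 2.20), Cfb, a protease of the alternative pathway, by 5.33 (SE 0.87, by tumor 3.69, 6.48 and 3.09), and Cfp, which encodes properdin, by 5.65 (SE 1.06, by tumor 3.32, 6.58 and 3.87).

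Other leukocyte lists were smaller. Of 12 dendritic cell genes, only Ccr7, the receptor that guides dendritic cells to lymph nodes, was upregulated, with 0.204, 0 and 0 CPM in naïve brain and 1.65, 7.0 and 6.76 CPM in the tumors, a ratio of 66.5-fold (95% exact counting interval 11.8 to 2640.0), and 3 were upregulated and 1 downregulated without replicate 3. Flt3, the cytokine receptor of dendritic cell precursors, had a log2 fold change of 0.84 (SE 0.61, by tumor −0.01, 1.47 and 0.44) and Zbtb46, a transcription factor of classical dendritic cells, of −0.39 (SE 0.53, by tumor −0.24, −0.02 and −0.77), and neither passed the test. Of 7 tested B and plasma cell genes, 5 rose and all 5 held. Igkc, the kappa light chain constant region, was at 7.75, 13.7 and 11.9 CPM in naïve brain and 58.8, 885 and 855 CPM in the tumors (log2 fold change 5.76, SE 1.15), so replicates 2 and 3 were alike and replicate 1 was low. Ms4a1, which encodes the B cell antigen CD20, was at 0.408, 0.747 and 0.270 CPM and 1.13, 4.95 and 5.91 CPM, and its log2 fold change of 3.03 kept its call only without 005 replicate 1, with 2.86 and 2.56 without 005 replicates 2 and 3 and 2.93, 3.54 and 2.79 without the naïve brains. Cd22, an inhibitory receptor of B cells, rose by 3.75 (by tumor 2.41, 4.19 and 2.20) and lost its call without 005 replicate 2 (2.79) or naïve replicates 1 or 3 (3.42 and 3.57). The joining chain gene Jchain rose by 5.78 (by tumor 2.35, 6.55 and 6.12) and lost its call without naïve replicate 1 (5.48). The number upregulated on this list was 1, 3 and 2 without naïve replicates 1, 2 and 3 and 2 without 005 replicate 2.

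Of 7 tested neutrophil genes, 4 rose and 3 held, and 2 rose without 005 replicate 2, naïve replicate 1 or naïve replicate 3. Retnlg, a resistin-like protein of neutrophils, was at 0.204, 0 and 0.270 CPM and 6.70, 21.1 and 13.7 CPM, a ratio of 85.1-fold (95% exact counting interval 23.4 to 705). S100a8, a subunit of calprotectin, rose by 3.01 (SE 0.62) and was highest in replicate 3, at 27.2 CPM. Its partner S100a9 was at 0.612, 0.498 and 1.62 CPM and 0.515, 2.41 and 12.2 CPM, the groups overlapped, and the log2 fold change of 2.48 (SE 1.05) did not pass (edgeR quasi-likelihood test, Benjamini-Hochberg adjusted p = 0.126). Csf3r, the receptor of granulocyte colony-stimulating factor, rose by 2.61 (by tumor 1.00, 3.51 and 2.14) and lost its call without 005 replicate 2 (1.70) or naïve replicates 1 or 3 (2.48 and 2.28). The mast cell protease genes Cma1 and Mcpt1, which were among the 10 genes named for the largest increase, were at 10.1, 154 and 3.70 CPM and 12.2, 57.2 and 3.13 CPM in the tumors and at most 0.747 CPM in naïve brain. The log2 fold change was 6.62 (SE 1.30) for Cma1, and the ratio was 83.5-fold (95% exact counting interval 28.4 to 406) for Mcpt1, which has close paralogs. The naïve values of both genes lay at or below the level of 3 counts.

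**Figure D3:**
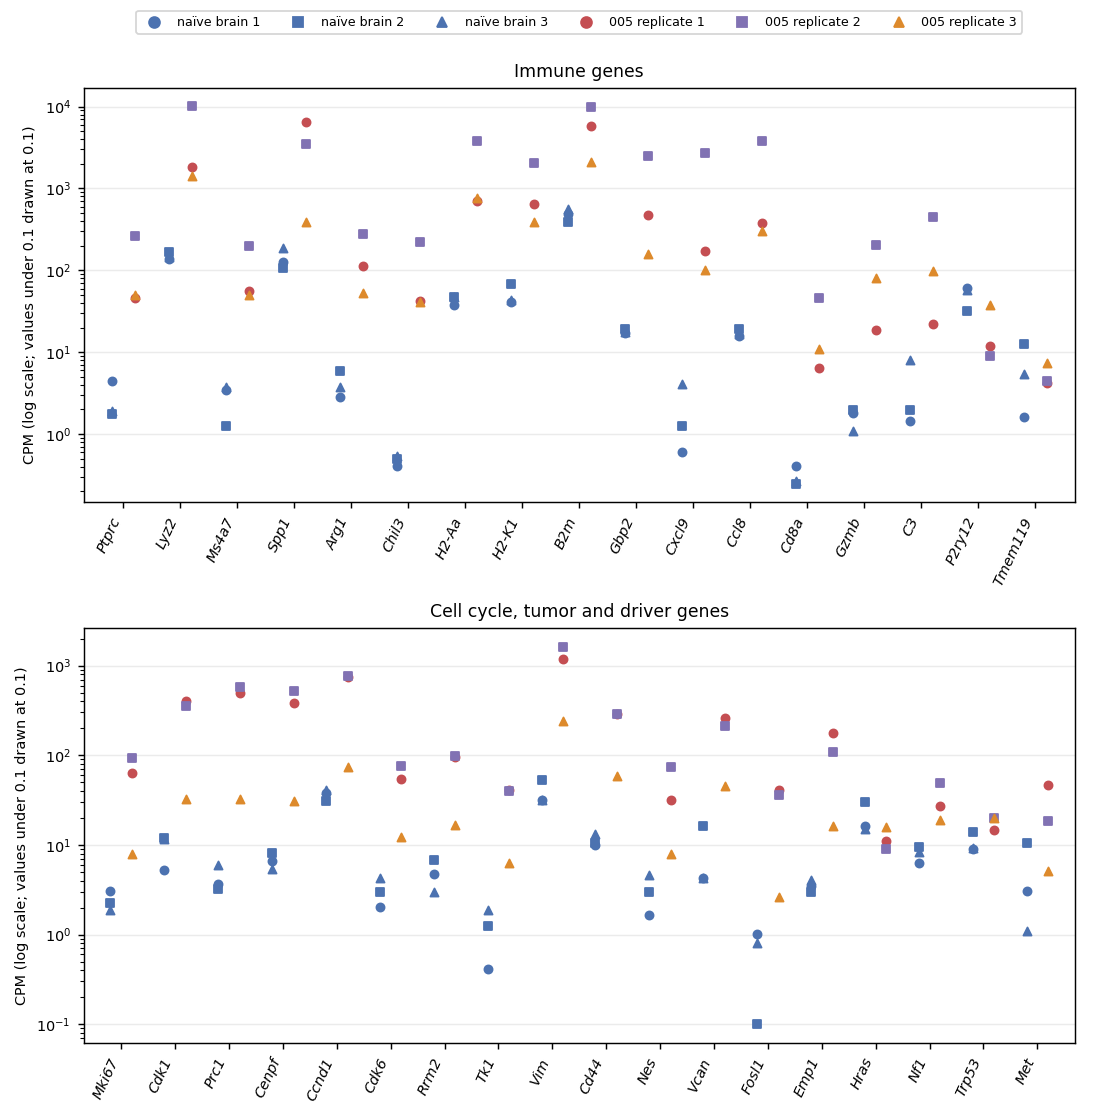
Levels of selected genes are plotted in CPM on a log scale for each naïve brain and each 005 tumor, with values under 0.1 drawn at 0.1. For most immune genes in the upper panel, replicate 2 is highest and replicates 1 and 3 are close, whereas for most cell cycle and tumor genes in the lower panel replicates 1 and 2 are close and replicate 3 lies between them and naïve brain.

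Cell cycle genes were higher in all the 005 tumors, but far less so in replicate 3. Of 25 genes of mitosis and the spindle, all 25 were upregulated and 21 held in replicate 3, with medians of 4.67, 4.86 and 1.68 on the log2 scale in replicates 1, 2 and 3. Mki67, which encodes the proliferation marker Ki67 (ENSMUSG00000031004, chromosome 7 from 135689784 to 135716361), was at 3.06, 2.24 and 1.89 CPM in naïve brain and 63.3, 94.3 and 7.90 CPM in the tumors (log2 fold change 4.50, SE 0.71). Cdk1, the kinase that drives entry into mitosis (ENSMUSG00000019942, chromosome 10 from 69335146 to 69352938), was at 5.30, 12 and 11.6 CPM and 401, 353 and 32.3 CPM, a log2 fold change of 4.77 (SE 0.72, edgeR quasi-likelihood test, Benjamini-Hochberg adjusted p = 0.00182). In both genes, replicate 3 lay above every naïve brain, and the other tumors lay far above replicate 3. Prc1, which bundles microtubules of the central spindle, was at 3.67, 3.24 and 5.95 CPM and 499.9, 584 and 32.8 CPM (log2 fold change 6.44, SE 0.83). The spindle protein gene Nusap1 rose by 5.71 (SE 0.78, by tumor 5.78, 6.59 and 3.26) and the kinetochore gene Cenpf by 5.53 (SE 0.80, by tumor 5.80, 6.24 and 2.18).

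Of 25 DNA replication genes, 21 rose and 12 held. Tk1, thymidine kinase 1, was at 0.408, 1.25 and 1.89 CPM in naïve brain and 41.0, 40.1 and 6.27 CPM in the tumors (log2 fold change 4.65, SE 0.69). Rrm2, a subunit of ribonucleotide reductase, rose by 3.86 (SE 0.59, by tumor 4.30, 4.37 and 1.80), the methylation reader Uhrf1 by 4.24 (SE 0.65, by tumor 4.10, 4.75 and 2.08) and the helicase subunit Mcm2 by 3.20 (SE 0.59, by tumor 3.46, 3.69 and 1.17). Pcna, the sliding clamp, was at 101, 69.3 and 148 CPM and 223, 208 and 89.1 CPM, and its log2 fold change of 0.71 (SE 0.37) did not pass. The chromatin assembly gene Chaf1b rose by 3.70, yet its 0.926 CPM in replicate 3 lay within the naïve range of 0.249 to 1.22 CPM. It lost its call without 005 replicate 1 (3.14), naïve replicate 2 (3.46) or naïve replicate 3 (3.73).

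Promoters of mitosis genes held the CCAAT box in 82.6% of 23 windows and those of replication genes in 77.3% of 22, against 33.8% of all windows. TTTGAA, the core of the cell cycle genes homology region, was in 34.8% of the mitosis windows and in 16% of all. It was in 9.09% of the replication windows, below the share of all windows. The GTPases induced by interferon gamma held it in 40% of 10 windows, so it was not particular to mitosis genes. Both promoters shown held 3 CCAAT boxes, which are in capitals on either strand. The Cdk1 window, set by its RefSeq start, overlaps in part the gene coordinates given above.
Mki67 (chr7:135716380-135716629, minus strand): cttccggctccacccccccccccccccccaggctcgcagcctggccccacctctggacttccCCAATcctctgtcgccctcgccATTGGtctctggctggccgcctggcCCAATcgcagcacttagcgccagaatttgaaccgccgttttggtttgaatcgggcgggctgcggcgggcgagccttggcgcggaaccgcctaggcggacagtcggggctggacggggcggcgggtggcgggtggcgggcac
Cdk1 (chr10:69352913-69353162, minus strand): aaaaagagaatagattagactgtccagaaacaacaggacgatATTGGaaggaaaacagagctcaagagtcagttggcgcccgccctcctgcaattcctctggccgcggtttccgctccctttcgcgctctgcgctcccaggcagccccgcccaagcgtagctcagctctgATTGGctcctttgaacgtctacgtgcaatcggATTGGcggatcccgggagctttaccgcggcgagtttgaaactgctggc

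Of 20 G1 cyclins, kinases and inhibitors, 9 rose and 8 held, with a median log2 fold change of 1.49 (1.34 with Cdkn2a set to its bound). Ccnd1, which encodes cyclin D1 and is a target of RAS signaling, was at 38.1, 30.9 and 41.1 CPM in naïve brain and 746, 762 and 74.5 CPM in the tumors (log2 fold change 3.84, SE 0.65), so the level in replicate 3 was less than 2 times the highest naïve value. Its partner kinase gene Cdk6 rose by 3.93 (SE 0.58, by tumor 4.05, 4.55 and 1.94). The S phase transcription factor gene E2f2 was at 0, 0 and 0.541 CPM and 6.08, 4.71 and 1.64 CPM, a ratio of 23.8-fold (95% exact counting interval 6.45 to 199). Cdkn2a, the locus of the tumor suppressors p16 and p19Arf, had 0 counts in all the naïve brains and was at 1.34, 3.98 and 0.926 CPM in the tumors.

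The genes named as drivers of the line were not upregulated. Hras was at 16.1, 29.9 and 15.1 CPM in naïve brain and 11, 8.93 and 15.7 CPM in the tumors, and the groups overlapped (log2 fold change −0.78, SE 0.45, edgeR quasi-likelihood test, Benjamini-Hochberg adjusted p = 0.242). The table has 1 Hras row, in which reads of an introduced copy and of the mouse gene cannot be told apart. Trp53, which encodes p53, was at 8.98, 13.9 and 9.19 CPM and 14.6, 20.2 and 19.7 CPM, a log2 fold change of 0.76 (SE 0.33) that did not pass (edgeR quasi-likelihood test, Benjamini-Hochberg adjusted p = 0.136). Every tumor lay above every naïve brain, which was so for 16.8% of all tested genes. Akt1 and Akt2 had log2 fold changes of −0.37 (by tumor 0.18, −0.50 and −0.42) and −0.47 (by tumor −0.82, 0.04 and −0.36), and neither passed the test. Among the 13 listed driver and pathway genes, 2 rose, where 11.6% of all tested genes did. Only 1 rose without 005 replicates 1 or 2 or naïve replicates 1 or 3, and 3 rose and 3 fell without 005 replicate 3. Nf1, a brake on RAS, was at 6.32, 9.47 and 8.38 CPM and 27.2, 48.8 and 19.2 CPM (log2 fold change 1.98, SE 0.37) and held in replicate 3. Nras rose by 1.12 with 71.2 CPM in replicate 3, close to the highest naïve value of 68.3 CPM, and lost its call without 005 replicate 1 (0.93), 005 replicate 2 (0.97), naïve replicate 1 (1.07) or naïve replicate 3 (1.11).

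Other genes of that list gave values without a call. The log2 fold change was 0.56 (by tumor 0.67, 0.85 and 0.04) for the p53 ligase gene Mdm2, −0.82 (by tumor −1.91, −0.30 and 0.13) for Egfr and −0.76 (by tumor −1.28, −0.74 and −0.31) for Pdgfra, both growth factor receptors. Pdgfra was called downregulated without replicate 3 (−1.11). The receptor gene Met was at 3.06, 10.5 and 1.08 CPM in naïve brain and 46.4, 18.7 and 5.13 CPM in the tumors, where replicate 3 fell inside the naïve range, and its log2 fold change of 2.26 (SE 0.79) was called without 005 replicate 3 (2.66) or naïve replicate 2 (3.62).

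Of 17 genes that RAS-ERK signaling induces, 6 rose and 3 held in replicate 3, and 9 rose and 1 fell without that library. Fosl1, a subunit of the AP-1 transcription factor, was at 1.02, 0 and 0.811 CPM in naïve brain and 40.8, 36.2 and 2.63 CPM in the tumors (log2 fold change 5.37, SE 0.96). Emp1, an epithelial membrane protein gene, was at 3.47, 2.99 and 4.06 CPM and 175, 108 and 16.2 CPM (log2 fold change 4.82, SE 0.66). The feedback inhibitors Dusp6 and Spry4 rose by 2.02 (SE 0.41) and 3.06 (SE 0.62), but their levels in replicate 3, 50.0 and 5.06 CPM, were less than the rule asks above naïve brain. Of 16 p53 target genes, only Gtse1, which is also a mitotic gene, was upregulated (log2 fold change 3.62, SE 0.77, by tumor 2.50, 3.90 and 2.05), with 2 upregulated without naïve replicates 2 or 3 and 2 upregulated and 2 downregulated without 005 replicate 3. Cdkn1a, which encodes p21, was at 11.4, 3.24 and 21.9 CPM and 49.0, 30.4 and 6.12 CPM, so replicate 3 lay within the naïve range, and its log2 fold change of 1.23 (SE 0.71) was called without replicate 3 (1.65).

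Neural stem and glial progenitor genes split, with 6 of 24 upregulated, 0 downregulated and a median of −0.05, which ranged from −0.51 to 0.48 over the alternatives. Vim, the intermediate filament vimentin (ENSMUSG00000026728, chromosome 2 from 13573927 to 13582826), was at 31.4, 53.6 and 31.4 CPM in naïve brain and 1171, 1613 and 239 CPM in the tumors, a log2 fold change of 4.70 (SE 0.62, edgeR quasi-likelihood test, Benjamini-Hochberg adjusted p = 0.00175). Nes, which encodes nestin, was at 1.63, 2.99 and 4.6 CPM and 31.6, 74.8 and 7.83 CPM (log2 fold change 3.64, SE 0.76), and Sox4, a transcription factor of progenitors, rose by 2.4 (SE 0.48, by tumor 3.20, 2.57 and 1.12). In all 3 genes replicate 3 lay above naïve brain and below the other tumors. The glial lineage factors Olig2 and Sox2 had log2 fold changes of 0.10 (SE 0.47, by tumor −0.37, −0.09 and 0.74) and 0.69 (SE 0.41, by tumor 0.75, 1.22 and 0.38), neither of which passed, and Sox2 was called without naïve replicate 2 (1.38). Without 005 replicate 3, 5 genes of the list were downregulated and 6 upregulated.

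Of 16 reactive gliosis genes, 12 rose and all 12 held in replicate 3, and 8 were upregulated without naïve replicate 1. The members with the largest increase, Gbp2, Emp1 and Vim, are also on other lists above. Gfap, the intermediate filament of reactive astrocytes, was at 9.18, 6.48 and 6.49 CPM in naïve brain and 13.2, 11.8 and 28.7 CPM in the tumors, with replicate 3 highest. Every tumor lay above every naïve brain, as for 16.8% of all tested genes. Its log2 fold change of 1.28 (SE 0.58) did not pass (edgeR quasi-likelihood test, Benjamini-Hochberg adjusted p = 0.146).

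Genes of the matrix rose, with 12 of 20 proteases, inhibitors and matrix proteins upregulated, 10 of which held, but 0 of the 18 then tested were called in the fit of the 6 samples alone. Vcan, the proteoglycan versican, was at 4.28, 16.2 and 4.33 CPM in naïve brain and 258, 209.6 and 45.3 CPM in the tumors (log2 fold change 4.37, SE 0.73). Plaur, the receptor of the protease urokinase, rose by 4.48 (SE 0.73, by tumor 4.77, 4.82 and 1.94) and the adhesion protein gene Tgfbi by 3.92 (SE 0.70, by tumor 2.84, 5.05 and 2.21). Timp1, an inhibitor of metalloproteases, was at 27.5, 32.9 and 36.0 CPM and 495, 356 and 62.9 CPM (log2 fold change 3.25, SE 0.54), which did not meet the rule in replicate 3. The gelatinase gene Mmp2 rose by 2.03 (by tumor 0.90, 2.96 and 1.03) and lost its call without 005 replicate 2 (1.02) or naïve replicates 1, 2 or 3 (2.08, 2.14 and 1.99). The count on this list was 7 without 005 replicate 2 or naïve replicate 1.

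Of 16 collagen genes, 7 rose and 4 held, and 4 rose without 005 replicate 2 or naïve replicate 1. Col4a1, a chain of the basement membrane collagen of vessels, was at 6.12, 16.7 and 4.06 CPM in naïve brain and 62.5, 109 and 19.6 CPM in the tumors (log2 fold change 2.83, SE 0.56), and Col18a1, whose fragment is endostatin, rose by 3.23 (SE 0.61, by tumor 4.10, 3.14 and 0.92) without meeting the rule in replicate 3. Col1a1, the fibrillar collagen of fibroblasts, had a log2 fold change of 0.15 (SE 0.67, by tumor −1.2, 0.79 and 0.27) and did not pass. Col5a1 rose by 3.13 (by tumor 2.58, 3.84 and 1.36) and lost its call without 005 replicate 2 (2.28) or naïve replicate 1 (3.1). Col6a3 rose by 4.31, but its level in replicate 3, 1.28 CPM, lay within the naïve range and the call was lost without 005 replicates 1 or 2 (4.55 and 2.90) or naïve replicates 1 or 3 (4.06 and 3.79).

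Most vessel genes did not pass the test, and neither did most of all tested genes. Of 18 endothelial and blood-brain barrier genes, 3 rose, 2 of which held, where 11.6% of all tested genes rose. The median log2 fold change of the list was 0.52. Without naïve replicate 3, 2 rose and 1 fell. Pecam1, the endothelial antigen CD31, was at 138, 162 and 149 CPM in naïve brain and 84.7, 162 and 134 CPM in the tumors (log2 fold change −0.24, SE 0.25), and Cldn5, the tight junction protein of the barrier, had a log2 fold change of 0.78 (SE 0.56, by tumor 0.92, 1.24 and 0.67). Neither passed. Angpt2, an antagonist of the vessel receptor Tie2 that destabilises vessels, was at 5.10, 2.99 and 2.16 CPM and 17.1, 25.4 and 8.76 CPM (log2 fold change 2.29, SE 0.48), and Emcn, an endothelial sialomucin gene, rose by 1.77 (SE 0.35, by tumor 1.93, 1.87 and 1.35). Esm1, a marker of endothelial tip cells, rose by 4.23, with 0.854 CPM in replicate 3, just above naïve brain, and lost its call without 005 replicate 2 (3.52), naïve replicate 2 (4.42) or naïve replicate 3 (3.72).

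Of 10 pericyte and mural cell genes, 2 rose, where 11.6% of all tested genes did. These were Kcnj8 (log2 fold change 2.30, by tumor 2.29, 2.44 and 1.37) and Abcc9 (1.87, by tumor 2.18, 2.17 and 0.64), the subunits of a potassium channel of pericytes. Kcnj8 held in replicate 3 and Abcc9 did not. Both calls were kept without 005 replicate 3 and lost without any 1 of the other 5 libraries. Kcnj8 then had 2.20 and 2.09 without 005 replicates 1 and 2 and 2.20, 2.61 and 2.24 without naïve replicates 1, 2 and 3, and Abcc9 had 1.64, 1.65, 2.26, 1.74 and 1.84. Pdgfrb and Rgs5, the defining pericyte markers, had log2 fold changes of 1.00 (SE 0.56, by tumor 1.07, 1.53 and 0.46) and 0.86 (SE 0.40, by tumor 0.24, 1.52 and 0.48) and did not pass.

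Of 20 hypoxia and glycolysis genes, 3 rose and 1 fell, where 11.6% and 1.05% of all tested genes did. The median of the list was 0.07, which ranged from −0.39 to 0.41 over the alternatives. Without 005 replicate 3, 4 rose and 3 fell. Hk2, the hexokinase of fast-growing tissue, was at 1.43, 3.49 and 1.89 CPM in naïve brain and 25.4, 38.8 and 6.76 CPM in the tumors (log2 fold change 3.38, SE 0.67). The other calls were kept without 005 replicate 3 and lost without any 1 of the other 5 libraries, in the order 005 replicates 1 and 2 and naïve replicates 1, 2 and 3. Car9, a carbonic anhydrase, had 3.21 (by tumor 3.38, 2.85 and 0.79, not held in replicate 3) and then 2.62, 3.11, 3.48, 2.82 and 3.71. Egln3, an oxygen sensor, had 2.57 (by tumor 2.41, 3.09 and 0.84, not held in replicate 3) and then 2.56, 2.01, 2.43, 2.83 and 2.62. The glycolytic gene Aldoa had −1.02 (by tumor −1.54, −1.30 and −0.44, not held in replicate 3) and then −0.81, −0.89, −0.94, −0.93 and −1.08. The glucose transporter gene Slc2a1 (1.01, SE 0.40, by tumor 1.04, 1.55 and 0.85) and Ldha (0.31, SE 0.36, by tumor 0.68, 0.55 and −0.34), the lactate dehydrogenase gene, did not pass, and Slc2a1 was called without naïve replicate 2 (1.79).

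Neuronal genes were low in 005 replicates 1 and 2 and close to the naïve level in replicate 3. Of 23 neuronal genes, 0 rose and 1 fell, the microtubule gene Map2 (0 and 11 at an unadjusted p below 0.05, 0 and 7 in DESeq2, and 18 to 22 downregulated in the limma fits), and all 23 were downregulated without replicate 3. Their median difference from the naïve mean was −2.92, −4.13 and −0.40 on the log2 scale in replicates 1, 2 and 3, and their summed level was 7105 to 9005 CPM in naïve brain and 998, 418 and 5690 CPM in the tumors. Snap25, a protein of synaptic vesicle fusion (ENSMUSG00000027273, chromosome 2 from 136713453 to 136782428), was at 2369, 1810.0 and 3349.5 CPM in naïve brain and 267, 77.9 and 1827 CPM in the tumors. Its value in replicate 3 fell inside the naïve range, and the log2 fold change of −1.79 (SE 0.88) did not pass (edgeR quasi-likelihood test, Benjamini-Hochberg adjusted p = 0.177), whereas it was called at −3.93 without replicate 3. Rbfox3, which encodes the neuronal antigen NeuN, was at 75.7, 117 and 108 CPM and 12.8, 6.04 and 65.6 CPM, with all the tumors below naïve brain, as for 10.7% of all tested genes (log2 fold change −1.83, SE 0.82, edgeR quasi-likelihood test, Benjamini-Hochberg adjusted p = 0.144), and was called at −3.48 without replicate 3. Map2 was at 842, 274 and 347 CPM and 73.5, 54.4 and 191 CPM and held in replicate 3 (log2 fold change −2.20, SE 0.53), but its call was lost without 005 replicate 1 (−1.99), 005 replicate 2 (−1.88) or naïve replicate 1 (−1.54).

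Receptors, channels and synaptic genes showed the same split. None of the 20 glutamate and GABA receptor genes, 20 ion channel genes and 22 synaptic genes was called (0 of each in edgeR's quasi-likelihood test, against 7, 6 and 11 downregulated at an unadjusted p below 0.05, 4 of each in DESeq2, and 17 to 20, 12 to 20 and 20 to 22 in the limma fits), with medians of −1.57, −1.47 and −1.84, and 19, 20 and 22 of them were downregulated without replicate 3. Grin1, the obligate NMDA receptor subunit, was at 34.1, 27.4 and 26.2 CPM in naïve brain and 5.46, 2.17 and 28.4 CPM in the tumors, so replicate 3 lay within the naïve range (log2 fold change −1.27, SE 0.70, and −2.99 without replicate 3). Gria1, an AMPA receptor subunit, went from −1.64 (SE 0.89, by tumor −2.32, −4.42 and −0.43) to −3.13. Scn1a, a sodium channel gene, was at 111, 149 and 120.1 CPM and 22.7, 8.81 and 179 CPM, and replicate 3 here lay above all the naïve brains (log2 fold change −0.85, SE 0.84, and −3.08 without it). The vesicle protein gene Syp went from −2.30 (SE 0.89, by tumor −3.53, −4.93 and −0.93) to −4.25 and the scaffold gene Dlg4 from −1.39 (SE 0.78, by tumor −2.52, −2.86 and −0.03) to −3.1.

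Myelin and astrocyte genes were also low in replicates 1 and 2 and not in replicate 3. Of 16 myelin and oligodendrocyte genes, 0 were called in edgeR's quasi-likelihood test (0 at an unadjusted p below 0.05, 0 in DESeq2, and 1 to 6 downregulated in limma) and 9 were downregulated without replicate 3, and the medians by tumor were −1.69, −2.0 and 1.02. Mbp, myelin basic protein, was at 402, 1489 and 343 CPM in naïve brain and 153, 119 and 1289 CPM in the tumors (log2 fold change −0.52, SE 0.84, and −2.52 without replicate 3). Replicate 3 lay within the naïve range and the other tumors below it. The sign of the median of this list, −0.29, changed without 005 replicate 1 (0.04), 005 replicate 2 (0.15) or naïve replicate 2 (0.12). Of 14 astrocyte genes, 0 were called in edgeR's quasi-likelihood test (1 was downregulated at an unadjusted p below 0.05, 0 in DESeq2, and 5 to 12 in limma) and 10 were downregulated without replicate 3. Aqp4, the water channel of astrocyte endfeet, was at 128, 87.2 and 123 CPM and 47.8, 37.4 and 189.6 CPM (−0.30, SE 0.62), and Aldh1l1, a folate enzyme of astrocytes, had a log2 fold change of −0.97 (SE 0.60, by tumor −1.38, −0.82 and −0.29).

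Mitochondrially encoded mRNAs were low in the same tumors, with 0 of 13 called in edgeR's quasi-likelihood test (8 downregulated at an unadjusted p below 0.05, 0 in DESeq2, 11 in limma on either TPM scale and 12 in limma voom), a median of −1.08 and 12 downregulated without replicate 3. The complex IV gene mt-Co1 was at 3349, 1578 and 3246 CPM in naïve brain and 626, 461 and 2384 CPM in the tumors (−1.24, SE 0.56, and −2.39 without replicate 3), and the complex I gene mt-Nd1 went from −1.14 (SE 0.50, by tumor −1.36, −2.32 and −0.22) to −1.91. When these genes were left out of the library sizes, 2300 genes were upregulated and 185 downregulated. The globin genes Hbb-bs and Hba-a1 had log2 fold changes of −0.61 (SE 0.58, by tumor −0.23, 0.19 and −1.64) and −0.47 (SE 0.60, by tumor −0.34, 0.48 and −1.58), and 0 of 5 red blood cell genes were called in edgeR's quasi-likelihood test, at an unadjusted p below 0.05, in DESeq2 or in limma. Hba-a1 has a near-identical copy with which reads may be shared.

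Choroid plexus genes were high in replicate 3. All 10 tested genes of choroid plexus and ependyma met the rule for replicate 3 upward, and their summed level was 909, 2895 and 3577 CPM in naïve brain and 534, 2031 and 14290.0 CPM in 005 replicates 1, 2 and 3. Ttr, the transthyretin gene that defines choroid plexus, was at 756, 2626 and 3333 CPM and 465, 1897 and 13557 CPM (log2 fold change 1.25, SE 0.98), and Folr1, its folate receptor, was at 3.47, 6.48 and 10.8 CPM and 0.824, 4.10 and 33.1 CPM. For both, replicate 1 lay below all the naïve brains, replicate 3 above them and replicate 2 within their range. The median log2 fold change of the list was 1.07 and was −1.10 without replicate 3, and it was also below 0 in limma on TPM and in limma voom. Aqp1, a water channel, was the only one called, at 0.204, 0.249 and 0.811 CPM and 12.6, 10.7 and 2.92 CPM, and was high in replicates 1 and 2 instead (log2 fold change 4.37, and 4.02 with the call lost without naïve replicate 1). The part of choroid plexus, brain tissue or other tissue in the values of replicate 3 was not tested.

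**Figure D4:**
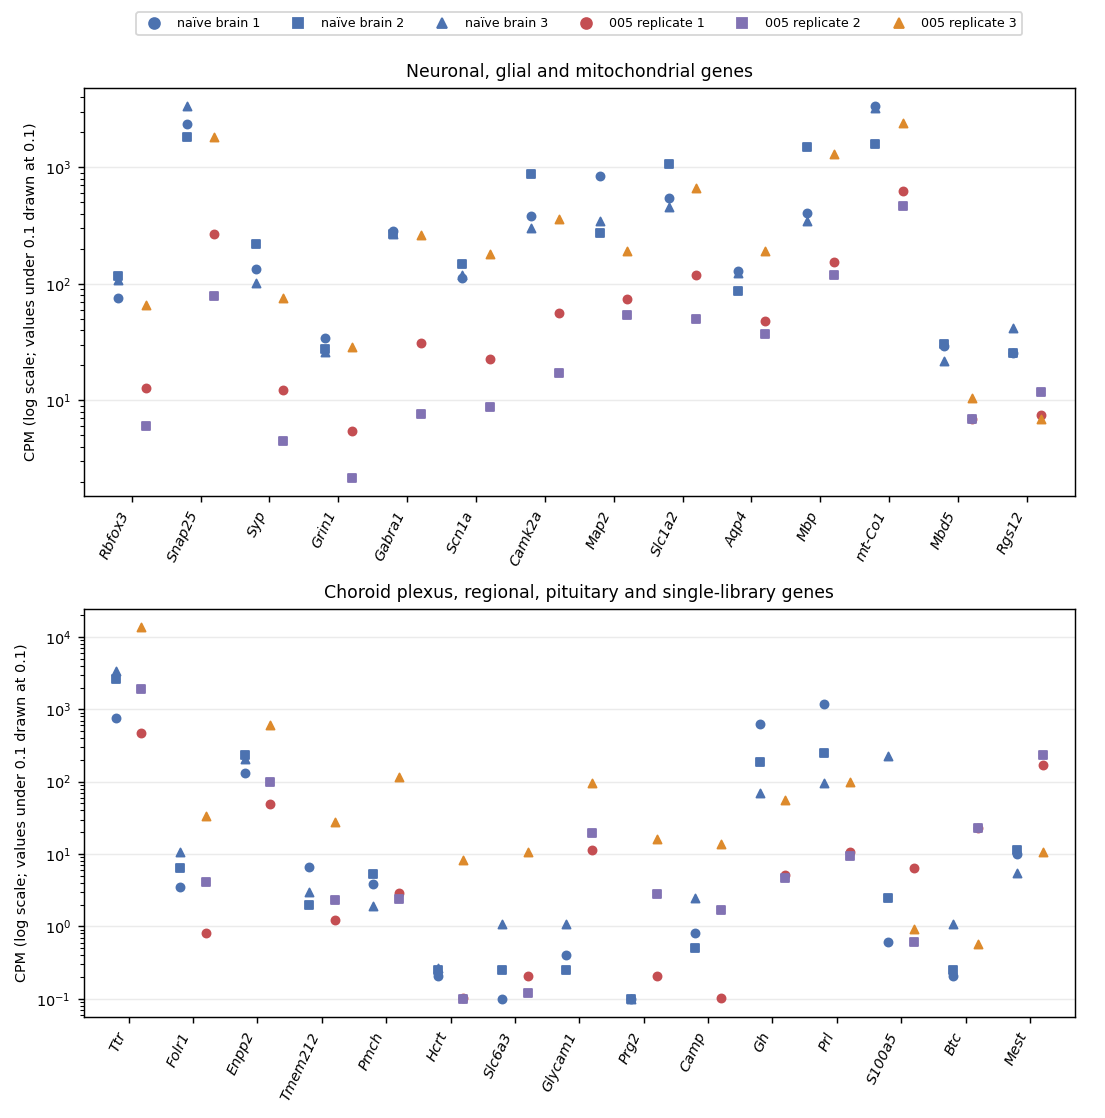
Levels are plotted in CPM on a log scale for each naïve brain and each 005 tumor, with values under 0.1 drawn at 0.1. In the upper panel, replicates 1 and 2 lie below naïve brain for neuronal and glial genes and replicate 3 lies at, near or above the naïve level, and all 3 tumors lie below naïve brain for Rbfox3, Syp, Map2, Mbd5 and Rgs12. In the lower panel, replicate 3 stands above all the other samples for Ttr, Pmch, Hcrt and Glycam1.

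Further genes, taken as those for which replicate 3 lay farthest beyond all the other 005 and naïve samples and given with no test, included regional markers of the brain. Pmch, the melanin-concentrating hormone of the lateral hypothalamus, was at 3.88, 5.23 and 1.89 CPM in naïve brain and 2.88, 2.41 and 117 CPM in the tumors, and Hcrt, the orexin precursor of the same region, was at 0.204, 0.249 and 0.270 and 0.103, 0 and 8.19 CPM. Slc6a3, the dopamine transporter gene of midbrain neurons, was at 0.206, 0.121 and 10.8 CPM in the tumors and at most 1.08 CPM in naïve brain. Glycam1, a mucin-like ligand of L-selectin, was at 0.408, 0.249 and 1.08 CPM in naïve brain and 11.5, 19.3 and 95.3 CPM in the tumors, so all of them lay above naïve brain. Prg2, an eosinophil granule protein, had 0 counts in naïve brain and was at 0.206, 2.78 and 16.1 CPM, with a call that was lost without any 1 of the naïve brains, and Camp, an antimicrobial peptide of neutrophils, was at 0.816, 0.498 and 2.43 CPM and 0.103, 1.69 and 13.7 CPM. Other genes of this kind were Gm5741, Agbl5, Mrvi1 and Gng8, at 28.1, 11.7, 11.5 and 16.6 CPM in replicate 3.

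In the other direction, replicate 3 lay below every other sample by less. Ago3, an Argonaute gene, was at 16.1, 26.2 and 26.2 CPM in naïve brain and 25.4, 28.2 and 5.91 CPM in the tumors, and Smad3, a transducer of TGF-beta signals, was at 17.7, 18.9 and 16 and 19.7, 18.6 and 9.97 CPM. Fkbp5, a glucocorticoid-induced chaperone, was at 20.8, 16.9 and 16 and 19.1, 16.2 and 9.26 CPM. Sema3a, an axon guidance gene, was at 16.5, 15.7 and 18.7 CPM and 139, 97.3 and 9.40 CPM, so that replicates 1 and 2 lay above naïve brain and replicate 3 below it. It was called upregulated (2.27), and without 005 replicates 1 or 2 or any 1 of the naïve brains the call was lost (1.66, 2.13, 2.26, 2.38 and 2.35). The rest, Zfp113, Mcph1, Wdfy1, Fam118a, Ubxn7 and Mettl16, were at 7.26, 8.12, 17.6, 4.70, 6.76 and 15.4 CPM in replicate 3.

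Some strong calls did not reach replicate 3 at all. Of the upregulated genes whose replicate 3 value lay within the naïve range, Btc, which encodes the EGF receptor ligand betacellulin, was at 0.204, 0.249 and 1.08 CPM in naïve brain and 22.6, 22.6 and 0.570 CPM in the tumors (log2 fold change 4.92, and 4.51 with the call lost without naïve replicate 1). Mest, an imprinted gene of the mesoderm, was at 9.996, 11.2 and 5.41 CPM and 172, 231 and 10.5 CPM, with a log2 fold change of 3.95 and no call without 005 replicate 2 (3.36), naïve replicate 1 (4.06) or naïve replicate 3 (3.71). Nppb, the natriuretic peptide gene, was at 0.204, 0.747 and 2.70 CPM and 31.0, 46.2 and 2.35 CPM (4.49, with no call without 005 replicate 2, 3.82, or naïve replicate 1, 3.94). In these genes replicates 1 and 2 lay at least 10 times above replicate 3.

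Genes of that kind also included the kinesin gene Kif14, at 39.0, 7.12 and 1.14 CPM in the tumors, and the predicted genes Gm10800, Gm10801 and Gm4070, at 132, 119 and 2.63, 28.1, 26.1 and 0.783 and 39.3, 276 and 5.55 CPM. Kif14 lost its call without 005 replicate 1 (2.17) or naïve replicates 1, 2 or 3 (3.73, 4.39 and 4.50). Gm10800 lost its call without naïve replicates 1 or 3 (4.73 and 4.74) and Gm10801 also without 005 replicates 1 or 2 (4.52, 4.63, 4.32 and 4.95 in that order). Gm4070 lost its call without 005 replicate 2 (2.67) or naïve replicates 2 or 3 (4.56 and 4.38). Sequences of these predicted genes may be shared with repeats. Rpl12 and Sinhcaf, in contrast, were among the 10 genes named for the largest increase and held, at 918, 969 and 21.2 CPM and 182, 250.4 and 19.2 CPM in the tumors (log2 fold changes 7.56, SE 1.44 and 6.86, SE 0.85). Rpl12 encodes a ribosomal protein with many processed pseudogenes, which makes its reads uncertain.

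Of the genes with the widest gap between the nearest tumor and the nearest naïve brain, Tlr7, a receptor of single-stranded RNA, was at 0.204, 0.747 and 0.541 CPM in naïve brain and 34.9, 14.4 and 24.4 CPM in the tumors (log2 fold change 5.62, SE 0.80), with replicate 3 between the other two. Il1rn, the natural antagonist of interleukin-1, was at 0.408, 0.747 and 0.270 CPM and 13.5, 64.0 and 14.2 CPM (log2 fold change 5.95, SE 0.90). H2-M2, a class I-like gene named for the size of its increase, was at 0.612, 0.249 and 0.270 CPM and 9.68, 224 and 28.8 CPM (log2 fold change 7.74, SE 1.42). The naïve values of Tlr7, Il1rn and H2-M2 lay at or below the level of 3 counts, so the size of these increases is uncertain.

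Few downregulated genes held in every tumor and in every fit that left out 1 library. Mbd5, a methyl-CpG-binding domain gene (ENSMUSG00000036792, chromosome 2 from 48949508 to 49325405), was at 29.2, 30.4 and 21.9 CPM in naïve brain and 6.90, 6.88 and 10.5 CPM in the tumors, a log2 fold change of −1.74 (SE 0.31, edgeR quasi-likelihood test, Benjamini-Hochberg adjusted p = 0.00290). Rgs12, a regulator of G protein signals (ENSMUSG00000029101, chromosome 5 from 34949445 to 35039644), was at 25.5, 25.4 and 41.4 CPM and 7.42, 11.8 and 6.98 CPM (log2 fold change −1.82, SE 0.35, edgeR quasi-likelihood test, Benjamini-Hochberg adjusted p = 0.00428). In these genes all 3 tumors lay below all the naïve brains by similar amounts. Both calls were kept without each library in turn, but not in every other alternative. Fam161b, a centrosome protein gene, was at 17.1, 24.4 and 11.9 CPM and 1.34, 2.66 and 4.20 CPM (log2 fold change −2.69) and lost its call without 005 replicate 1 (−2.36).

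Several other downregulated genes held in replicate 3 but not in every fit. Ntrk3, the receptor of neurotrophin-3, was at 70.4, 131 and 194 CPM in naïve brain and 9.99, 6.4 and 36.0 CPM in the tumors. Its log2 fold change of −2.90 was lost without 005 replicates 1 or 2 (−2.62 and −2.50) or any naïve brain (−3.20, −2.86 and −2.51). Dab1, the adaptor of reelin signaling, was at 58.8, 53.3 and 104 CPM and 7.93, 1.93 and 26.8 CPM (−2.54), with the call lost in the same 5 fits (−2.31, −2.04, −2.67, −2.67 and −2.18). Npy1r, a neuropeptide Y receptor, was at 24.7, 20.4 and 22.2 CPM and 3.71, 1.81 and 9.54 CPM (−2.14), with the call lost in those fits too (−1.96, −1.75, −2.06, −2.14 and −2.15). Gucy1a1, a subunit of the nitric oxide receptor, was at 83.0, 159.7 and 94.6 CPM and 20.1, 8.21 and 29.0 CPM (−2.55), and these fits gave −2.58, −2.19, −2.72, −2.12 and −2.65 with no call.

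Ccn3, a matricellular protein gene, was at 77.7, 45.6 and 64.9 CPM in naïve brain and 5.15, 1.69 and 18.7 CPM in the tumors (−2.87), with no call without 005 replicates 1 or 2 (−2.60 and −2.39) or naïve replicates 1 or 3 (−2.68 and −2.84). Ndst4, a heparan sulfate enzyme gene, had −2.69 (by tumor −2.67, −4.47 and −1.69), and −2.62, −2.22, −2.53 and −2.52 in the same fits. Abhd18, a hydrolase-domain gene, had −2.01 (by tumor −1.82, −2.88 and −1.42), and −2.05, −1.68, −2.12 and −1.75. The vesicle GTPase gene Rab26 had −2.62 (by tumor −2.71, −5.13 and −1.60), and −2.53, −2.10, −2.68, −2.65 and −2.46 without 005 replicates 1 and 2 and naïve replicates 1, 2 and 3, all with no call. The troponin gene Tnnc1 had −2.33 (by tumor −2.58, −3.42 and −1.47), and −2.18, −1.97, −2.45, −2.30 and −2.13 in those fits. Exph5, an effector of Rab27, had −2.49 (by tumor −2.25, −3.79 and −1.57) and no call in the first 4 of them (−2.48, −2.04, −2.37 and −2.23).

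Single naïve brains decided some of the largest decreases. The pituitary hormone genes Gh and Prl were at 621, 186 and 70.8 CPM and 1179, 248 and 97.3 CPM in naïve replicates 1, 2 and 3 and at 5.15, 4.71 and 56.1 CPM and 10.8, 9.30 and 98.4 CPM in the tumors. Naïve replicate 1 was highest for both, and replicate 3 of 005 lay just below the lowest naïve value for Gh and just above it for Prl. Their log2 fold changes of −3.73 and −3.68 lost their calls without 005 replicate 1 (−3.26 and −3.23), 005 replicate 2 (−3.25 and −3.21) or naïve replicate 1 (−2.53 and −2.11). S100a5, a calcium-binding protein of olfactory neurons, was at 0.612, 2.49 and 226 CPM in naïve brain, so the log2 fold change of −4.85 (by tumor −0.30, −3.24 and −2.78, not held in replicate 3) rested on naïve replicate 3, and it became 0.79 without that brain. Its call was also lost without 005 replicates 1, 2 or 3 (−6.57, −4.39 and −4.48). Cdhr1, a photoreceptor and olfactory bulb cadherin, was at 4.90, 7.97 and 19.2 CPM and 2.06, 0.241 and 0.854 CPM (−3.31) and lost its call without naïve replicate 3 (−2.58) or 005 replicate 2 (−2.86). Gal3st2c, a sulfotransferase gene, was at 39.2, 0.996 and 1.62 CPM, and its log2 fold change of −3.54 (by tumor −1.60, −2.20 and −1.31, not held in replicate 3) was lost without naïve replicate 1 (−0.13) or 005 replicates 1 or 2 (−3.56 and −3.30). The part of the region taken from each brain in these values was not tested.

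Downregulated genes for which replicate 3 lay within the naïve range were also Atp6v0a1, a proton pump subunit, Tef, a circadian transcription factor, Gpsm1, B3gat3, Iqcb1, Mllt11 and Zc2hc1a. Their log2 fold changes were between −2.17 and −1.63, and their calls were lost without 005 replicate 1 or 2 and without 1 or 2 of the naïve brains. In the fits with no call, the values lay between −2.13 for Atp6v0a1 and −1.05 for B3gat3. Tef, for example, was at 245, 101 and 52.7 CPM in naïve brain and 15.1, 16.3 and 64.3 CPM in the tumors.

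To see where 005 stood apart, it was also compared with the mean of CT2A, GL261 and Mut3, a contrast in which the naïve brains cancel. A total of 997 genes (5.70% of those tested) were higher and 288 (1.65%) lower in 005 (edgeR quasi-likelihood test, Benjamini-Hochberg adjusted p under 0.05 and a log2 difference of 1 or more in size). Ccl8 was at 299.6 to 3751 CPM in the 005 tumors and at 14.5 to 151 CPM in the 9 other tumors (median 33.8), and it was higher in 005 by 5.24 (SE 0.59) on the log2 scale (edgeR quasi-likelihood test, Benjamini-Hochberg adjusted p = 2.55e-04). No other tumor reached the lowest 005 tumor. Glycam1 was at 0.264 to 5.58 CPM in the other tumors and higher in 005 by 4.37 (SE 0.51, edgeR quasi-likelihood test, Benjamini-Hochberg adjusted p = 3.38e-04), and again the groups did not overlap. Cxcl9, by contrast, overlapped with GL261, whose highest value was 167 CPM against 101 CPM in 005 replicate 3, and was higher in 005 by 4.44 (SE 0.74), with 1.59 and no call without 005 replicate 2. The calls of Ccl8 and Glycam1 were kept without each 005 tumor in turn, but the difference of Ccl8 was 3.12 without replicate 2 and that of Glycam1 2.90 without replicate 3.

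Fzd1, a receptor of Wnt ligands, was at 9.18, 13.2 and 7.30 CPM in naïve brain, 147, 225 and 32.0 CPM in the 005 tumors and 3.32 to 24.7 CPM in the other tumors, a difference of 3.93 (SE 0.42, edgeR quasi-likelihood test, Benjamini-Hochberg adjusted p = 2.10e-04). It also rose over naïve brain by 3.76 (SE 0.64) and held in replicate 3. Gchfr, the regulator of the enzyme that starts tetrahydrobiopterin synthesis, was at 3.67, 0.747 and 2.16 CPM in naïve brain, 124, 54.6 and 8.97 CPM in the 005 tumors and at most 7.36 CPM in the others, a difference of 4.17 (SE 0.51). Rgs8, a regulator of G protein signals, was at 12.2, 39.1 and 9.46 CPM in naïve brain and 62.1, 72.4 and 22.9 CPM in the 005 tumors, so it did not differ by the test from naïve brain (1.37, SE 0.82), but it was at 0.621 to 20.4 CPM in the other tumors and higher in 005 by 3.86 (SE 0.61). These 3 calls were kept without each 005 tumor in turn, with 3.20 for Gchfr without replicate 1.

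Among the genes that were lower in 005 than in the other tumors, Nxf3, an mRNA export factor, was at 1.44, 0.362 and 1.21 CPM in the 005 tumors and 12.6 to 61.3 CPM in the others, a difference of −4.92 (SE 0.43, edgeR quasi-likelihood test, Benjamini-Hochberg adjusted p = 5.55e-05). Capn6, a calpain-like protein of the cytoskeleton, was at 1.03, 1.57 and 1.5 CPM and 3.73 to 102 CPM (−4.45), and Fndc3c1 was at 0.309, 0.362 and 0.356 CPM and 1.16 to 31.0 CPM (−5.17). Psg29, a gene of the pregnancy-specific glycoprotein family, was at 0.618, 0.845 and 0.783 CPM and 1.34 to 91.4 CPM (−4.09), and Ccdc38 at 0.206, 0.483 and 0.498 CPM and 0.621 to 37.8 CPM (−4.15). None of these 5 genes was called against naïve brain, which was also low in them, and all 5 calls against the other tumors were kept without each 005 tumor in turn. Reads of Psg29 may be shared with related family members. Of the driver list, Trp53 was lower in 005 than in the other tumors, with a log2 difference of −1.49 (SE 0.29), at 14.6 to 20.2 CPM against 26 to 86.7 CPM, and so was Pdgfra, with −1.68 (SE 0.32). The 005 and other tumors did not overlap for either gene.

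**Figure D5:**
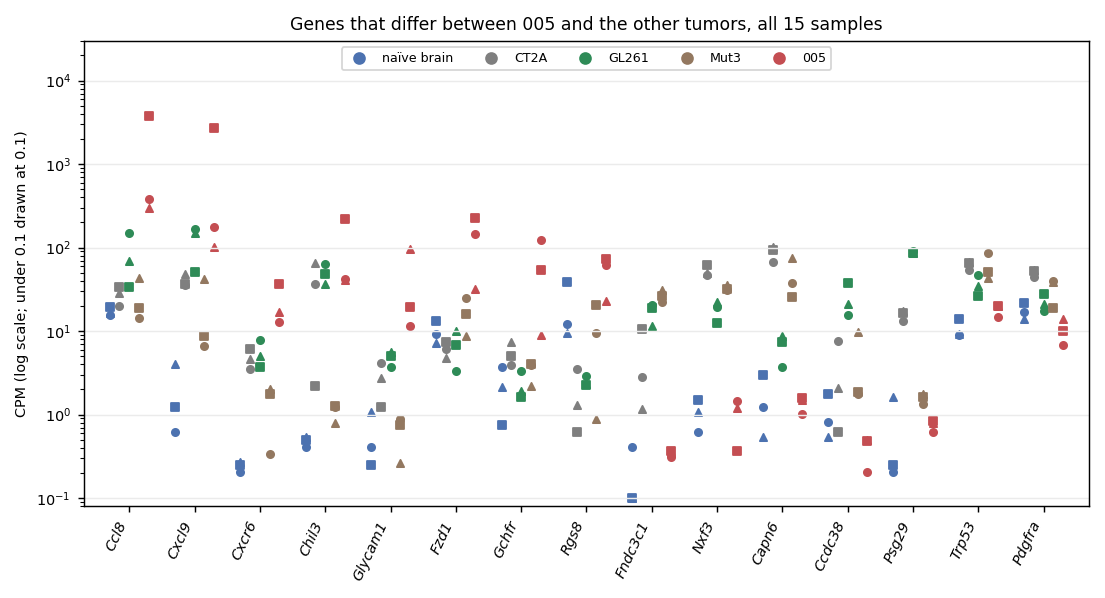
Levels of genes named for their difference from the other tumors are plotted for all 15 samples in CPM on a log scale, with values under 0.1 drawn at 0.1. Circles, squares and triangles are replicates 1, 2 and 3. The 005 tumors (red) stand above all other tumors for Ccl8, Glycam1, Fzd1, Gchfr and Rgs8 and below them for Nxf3, Capn6, Fndc3c1, Trp53 and Pdgfra.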

How the data were processed

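Tumor and naïve brain tissue was sequenced as bulk RNA. Per the labels and the study's methods, reads from 50 ng of RNA were aligned with STAR v2.4.2a to the mouse genome with a GENCODE annotation, duplicates were marked and RNA-SeQC was run. The submitters' processing notes name mm10, Salmon and DESeq2 1.18.1 without their roles, and the strand setting is not given in the sources used here. The authors deposited 1 table of expected counts and 1 of TPM values for all 15 samples. The tables are not independent, since over the 4644 genes that exceeded 50 counts throughout, count over TPM followed a gene and a sample factor to within 9.6e-10 (log2).

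Expected counts were rounded, filtered with filterByExpr and scaled by TMM, and edgeR 4.0.16 (R 4.3.3) fitted 1 mean for each of 5 groups of 3 samples, so that all groups share 1 estimate of the spread. A gene was called at a Benjamini-Hochberg adjusted p under 0.05 over 17481 genes in the quasi-likelihood test and a log2 fold change of 1 or more in size. This test gives no standard error. The SE shown is the size of the log2 fold change divided by the square root of the F statistic. It is approximate, and for genes near 0 counts the fold change also depends on the prior count. For replicate 3, log2 CPM had a prior count of 2. Where naïve brain had 1 to 3 counts in all, the ratio of summed counts is given with an exact Clopper-Pearson interval. Alternatives were DESeq2 1.42.0, limma 3.58.1 on log2(TPM + 1) and log2(TPM + 0.1), limma voom with sample weights, other filters, scalings and thresholds, a replicate block, and omission of each library. Coordinates come from GENCODE M21 on GRCm38, which matched 46269 of 46679 genes.

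Named genes were the first 2 and up to 3 most changed genes per direction of 38 lists, all driver genes, per direction 10 called genes each for the largest change, the widest gap and a replicate 3 within the naïve range, 10 with replicate 3 farthest from the other samples, and 5 that differed most from the other tumors. Some genes that this rule names are not reported here. Genes named beyond this rule were chosen after their values were seen. The comparison, lists and rules were chosen with earlier results of these data known. In counts simulated for 005 against naïve brain (15934 genes, 200 changed), the test called 17.1% of genes changed by 1.5, 37.3% of those changed by 2 and 76.4% of those changed by 3 on the log2 scale, with 3 unchanged genes among 85 called. Apart from the 200 changed genes, each simulated gene had the same mean in all groups. No simulated library was set apart as 005 replicate 3 was. Far more genes were called in the data, so these shares do not describe the comparison itself.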

Additional observations from a re-analysis of the deposited data

Results flagged for a closer look

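Of the 208 genes named in the text, 65 differed between the 005 tumors and the mean of CT2A, GL261 and Mut3 (edgeR quasi-likelihood test of that difference, Benjamini-Hochberg adjusted p under 0.05 with a log2 difference of 1 or more in size), with 57 higher and 8 lower in 005. Among all tested genes, 5.70% were higher and 1.65% lower. The named genes include 5 in each direction that were chosen for this same difference, so the count of 65 is not a result about the named genes. They drew attention because a difference between tumor lines was tested and passed, and the values below are log2 differences. A gene higher in 005 than the mean of the other lines need not be higher than each of them. H2-Aa was at 1308 to 4285 CPM in GL261 and 701, 3816 and 759 CPM in 005. Aqp1 was at 12.3 to 26.4 CPM in CT2A and 12.6, 10.7 and 2.92 CPM in 005. Spp1 was at 2432 to 3522 CPM in CT2A and 393 CPM in 005 replicate 3. Others, such as Ccl8 and Glycam1, stood above all other tumors. No group had more than 3 samples, so no single sample was tested against the rest of its group.

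Many of the genes that were higher in 005 belong to leukocytes, and most of these calls rested on replicate 2. The differences were 2.32 for Ptprc, 1.90 for Cd52, 1.21 for Laptm5, 1.63 for Rac2, 2.08 for Arg1, 3.03 for Chil3, 2.0 for Ly6c2 and 2.11 for Il1rn. Without 005 replicate 2 they became 1.01, 0.79, 0.48, 0.90, 1.25, 1.74, 0.46 and 0.98, and none of these 8 was then called. Genes of antigen presentation and interferon responses behaved alike, with 1.86 for H2-Aa, 2.47 for H2-Ab1, 2.46 for Ciita, 1.91 for Gbp2, 2.17 for Gbp8 and 4.44 for Cxcl9. Their values without replicate 2 were 0.59, 0.92, 0.87, 0.20, 0.35 and 1.59, again with no call. In T and cytotoxic cells, the differences were 2.14 for Cd8a, 2.53 for Cd8b1, 2.28 for Gzmb, 2.60 for Nkg7, 2.29 for Pdcd1 and 4.57 for Pdcd1lg2, and they fell below the call to 0.88, 1.43, 1.27, 1.29, 1.59 and 2.62 without replicate 2. The same held for Cd22 (1.83, and 0.86 without replicate 2), Cfb (2.34 and 0.56), Cfp (2.83 and 1.11), Mcpt1 (3.92 and 2.26), Nppb (2.99 and 2.32), Rgs5 (1.18 and 0.68) and Tgfbi (1.79 and 0.45). The part of the leukocyte share of each tumor in these differences was not tested.

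Other calls rested on replicate 1 or 3 or on more than 1 tumor. Replicate 3, which lay near naïve brain, carried the higher levels of Grin1 (2.18, and 0.50 without it), Scn1a (2.66 and 0.48) and Npy1r (1.91 and 1.01), and also of Prg2 (5.01 and 2.87) and Gm5741 (4.82 and 1.69). Cd5 lost its call without replicate 3, with a difference that changed little (4.15 and 3.69). Prg2, Gm5741 and Cd5 were at 0 in several of the other tumors, so their fitted differences depend on the prior count. Dusp6 (1.41 and 1.09) and Spp1 (2.04 and 1.21) lost their call without replicate 1. The calls of Aqp1 (2.22), Mest (2.48) and Plaur (1.56) were lost without replicate 1 (1.87, 2.30 and 1.25) or replicate 2 (2.05, 1.89 and 1.2). Ccr7 (2.53) and Ms4a1 (2.48) lost theirs without replicate 2 (2.25 and 2.31) or replicate 3 (2.25 and 2.05).

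The remaining higher genes were called without each 005 tumor in turn. Among immune genes these were Ccl8 (5.24), Cxcr6 (2.73), C3 (3.48), Clec7a (3.20), Itgax (2.64), H2-M2 (5.95), Retnlg (3.50), S100a8 (2.34), Cma1 (5.34) and Glycam1 (4.37). Several of these values still rested in part on replicate 2, without which they were 3.12 for Ccl8, 1.81 for C3, 1.95 for Clec7a, 1.58 for Itgax, 3.77 for H2-M2 and 2.32 for Cma1, and Glycam1 was 2.90 without replicate 3. The others were Apoe (1.21), Btc (3.00), Fzd1 (3.93), Gchfr (4.17), Rgs8 (3.86), Rpl12 (3.61) and Spry4 (2.15), with Gchfr at 3.20 without replicate 1. Btc, however, was at 24.8 to 36.6 CPM in CT2A, above the 22.6, 22.6 and 0.570 CPM of the 005 tumors.

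Of the 8 genes that were lower in 005, 7 were called without each 005 tumor in turn, with −4.92 for Nxf3, −4.45 for Capn6, −5.17 for Fndc3c1, −4.09 for Psg29, −4.15 for Ccdc38, −1.49 for Trp53 and −1.68 for Pdgfra. Cdkn2a, at −2.0, lost its call without 005 replicate 1 (−1.77) or 005 replicate 3 (−1.66).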

How the results depend on the processing

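The counts changed with the model, the samples in the fit and the scale. With 2033 up- and 184 downregulated genes in the comparison of all samples, DESeq2 gave 818 downregulated genes, 182 of which held in replicate 3, and 523 genes lower in 005 than in the other tumors, while its other 3 counts stayed within 1.5 times. When only the samples compared entered the fit, 219 genes rose and 3 fell, all of which held in replicate 3 (219 and 3), with 218 and 2 of them shared with the fit of all samples, and 654 genes were higher in 005 than in the other tumors. Limma voom, which gave 005 replicate 3 a weight of 0.155, called 3334 genes up and 3338 down, of which 192 of the latter held in replicate 3. Limma on log2(TPM + 1) gave 874 up (458 held) and 2295 down (101 held) with 249 higher and 145 lower than in the other tumors, and log2(TPM + 0.1) gave 3035 down (334 held) and 442 higher. These TPM scales moved the median of all genes to −0.23 and −0.45, leaving out mitochondrially encoded genes moved it to 0.11 and leaving out naïve replicate 2 to 0.18, from 0.01.

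Without a filter on low counts, 1810 genes were higher in 005 than in the other tumors. Where a gene needed 10 counts in all samples, fewer genes were tested, and 1018 rose (372 held), 33 downregulated genes held, and 439 were higher and 173 lower than in the other tumors. A log2 fold change of 2 or more in size left 56 downregulated genes and 507 higher and 139 lower than in the other tumors. Asking only that replicate 3 lie beyond all naïve values, 1801 upregulated and 166 downregulated genes held, and asking for at least 1 beyond the nearest naïve value, 761 and 25 did. Library size in place of TMM, mitochondrially encoded genes left out and no threshold on the fold change kept all 6 counts within 1.5 times.

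Leaving out each replicate gave 992 to 3217 up- and 12 to 3318 downregulated genes, of which 753 to 1149 and 12 to 91 held in replicate 3, and without each 005 tumor 909 to 1179 genes were higher and 206 to 355 lower than in the other tumors. The log2 fold change of S100a5 ranged from −6.57 without 005 replicate 1 to 0.79 without naïve replicate 3, which reversed it. Calls of named genes were lost most often when only the samples compared were fitted (91 genes), and 3 were lost in DESeq2, 12 with library size, 40 on log2(TPM + 1) and 2 without 005 replicate 3.

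The groups share replicate numbers, but deviations from the group means of same-numbered 005 and naïve samples correlated at 0.028, −0.006 and −0.066 across genes. These values show no pairing by number. They cannot exclude it, since 005 replicate 3 lay apart from the other 005 tumors and so weighs on every 005 deviation. With the replicate number as a block, 1615 genes rose, 147 fell, and 402 were higher and 185 lower than in the other tumors.

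At the depth of naïve brain, 3 counts correspond to as much as 0.811 CPM, so levels below this are not told apart from 0. The other tumors were not left out in turn. The omission of each 005 tumor from the comparison of single genes with the other tumors was chosen after seeing the data.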
